A study of Mus musculus with 13 samples.

Results

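The genes described here are *Egr1*, *Egr2*, *Egr3*, *Nr4a1*, *Nr4a2*, *Nr4a3*, *Cd5* and *Cd69*, whose transcripts are widely read as signs of recent T cell receptor (TCR) signalling. They were chosen by name, and all 8 of 8 were found among the 24417 named genes of the count tables. Bulk RNA-seq had been made from T cells sorted from pooled spleen and lymph nodes of C57BL/6 mice, in an experiment on males and another on females. The study asked how Treg "wannabes", cells that transcribe a *Foxp3* reporter allele (LSL) which makes no Foxp3 protein until Cre removes its stop cassette, compare with Treg cells and with cells whose *Foxp3* had been restored.

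All males were given 4-hydroxytamoxifen once, at 14 days of age, and were analysed at 21 days, 7 days later. Control Treg cells (n = 3) came from Foxp3DTR-GFP/yCd4creERT2 males, rescued Treg cells (n = 3) from Foxp3LSL/yCd4creERT2 males, and wannabes (n = 2) from Foxp3LSL/yCd4wt males, in which no Cre is present and which lack functional Treg cells. CreERT2 was driven from *Cd4*, so that recombination was not limited to Treg cells. All females received diphtheria toxin 7, 5, 3 and 1 days before analysis. Resting wannabes (n = 3) came from Foxp3LSL/WTCd4wt females, whose other Treg cells lack the toxin receptor, and activated wannabes (n = 2) from Foxp3LSL/DTRCd4wt females, in which the toxin removes the receptor-bearing Treg cells. The labels give these females as 9 to 11 weeks old, and the protocol as 8 to 10 weeks old at treatment. Treg cells had been sorted as Foxp3-positive and wannabes as Thy1.1-positive, Foxp3-negative CD4 T cells, so *Foxp3* status was part of the gate. Total counts per library ranged from 25558402 to 36660933. The methods describe the libraries as biological replicates, so p-values set group differences against an estimate of the spread between these samples.

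Engagement of the TCR induces the zinc finger factors of the Egr family and the orphan nuclear receptors of the Nr4a family within the hour, as immediate early genes whose transcripts are short lived. CD69 is an early surface marker that holds T cells in tissue by opposing the egress receptor S1PR1, and CD5 is a slower inhibitory receptor whose level is set by the strength of self-recognition. Treg cells are known for higher TCR signalling than most other CD4 T cells.

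*Foxp3* counts followed the labels. Normalized *Foxp3* counts (counts scaled by TMM library size) were 5466, 7045 and 8282 in control Treg replicates 1, 2 and 3, 28404, 29736 and 36480 in rescued Treg cells, and 2760 and 3280 in wannabes. In females they were 2074, 1995 and 2224 in resting and 1570 and 1731 in activated wannabes. The reporter allele itself is transcribed, and the reads do not tell its transcript from that of the wild-type allele. The T cell gene *Cd3e* lay between 24374 and 35759 in every library.

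Some libraries stood apart. Among the 14525 tested male genes with a known GC content, the tenth richest in GC (57.5% or more) had a median log2 difference of 0.53 in wannabe replicate 2 against replicate 1, and the tenth poorest in GC (41.2% or less) one of -0.67. In each Treg library against the others of its group the same medians lay between -0.19 and 0.16. The GC of the members' longest transcripts is 57.3% for *Egr1*, 57.0% for *Nr4a1*, 56.8% for *Cd5*, 51.4% for *Egr2*, 51.3% for *Egr3*, 48.4% for *Nr4a3*, 47.9% for *Nr4a2* and 35.9% for *Cd69*, so that only *Cd69* lies beyond these limits, and the part of this difference in comparisons with wannabes was not tested. In rescued Treg replicate 1, *Jund* stood at 11165 against 1665 and 1455 in the other rescued libraries. Its *Ier5* was 6122 against 1586 and 1117, and its *Klf2* was 5426 against 931 and 938. Control Treg replicate 1 had a *Hspa1a* count of 1603 against 125 and 116 in the other controls. Resting wannabe replicate 1 had a *Jund* count of 20975 against 6058 and 5180 and a *Klf2* count of 11877 against 3252 and 2870. Without rescued replicate 1 the log2 fold change of *Egr1* between rescued and control Treg cells was 0.39, against 0.61 with it. Without resting replicate 1 that of *Egr1* between activated and resting wannabes was -0.64, against -0.71 with it. The part of these differences in the results below was not tested.

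Per length, *Cd5* was the most abundant member in every group. In control Treg cells its level was 152 ± 10.5 RPKM (counts scaled by exonic length and library size; SD, n = 3), above *Nr4a1* at 59.2 ± 3.50, *Cd69* at 37.3 ± 5.05, *Egr1* at 28.3 ± 6.36 and *Egr2* at 26.6 ± 4.08 RPKM. *Nr4a3* was at 3.03 ± 0.335, *Nr4a2* at 1.73 ± 0.977 and *Egr3* at 1.48 ± 0.255 RPKM. In resting wannabes *Egr1* ranked second at 74.4 ± 5.43 RPKM (n = 3), below *Cd5* at 115 ± 15.5 and above *Nr4a1* at 54.6 ± 6.64 RPKM. The tables were normalized apart, so levels were not compared between males and females. All 8 members passed the filter on low counts in both tables.

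In GRCm38, *Egr1* lies at chr18:34859823-34864984, *Egr2* at chr10:67535475-67542188 and *Egr3* at chr14:70077203-70082614, all on the plus strand. In this family, *Egr1*, the prototype immediate early factor, had normalized counts of 4109, 5131 and 3262 in control Treg cells, 8221, 6260.0 and 4684 in rescued Treg cells, and 2256 and 2136 in wannabes. Rescued Treg cells were highest and wannabes lowest, and the only overlap was of rescued replicate 3 with control replicate 2. *Egr2*, linked to restraint of T cell activation, was highest rather than lowest in wannabes. It stood at 2997, 3398 and 2491 in control Treg, 3346, 3817 and 2831 in rescued Treg cells and 4281 and 5885 in wannabes. Its wannabe libraries were above every Treg library, and the Treg groups overlapped. *Egr3*, often regarded as redundant with *Egr2*, was sparse, at 174, 218 and 248 in control Treg, 329, 525 and 289.8 in rescued Treg cells and 328 and 432 in wannabes. Every control library lay below every rescued and every wannabe library, and the latter groups overlapped.

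*Nr4a1* lies at chr15:101254269-101274795 (plus strand), *Nr4a2* at chr2:57106830-57124003 (minus strand) and *Nr4a3* at chr4:48045153-48086447 (plus strand). In this family, *Nr4a1* (Nur77), the most abundant of them, had counts of 6509, 7269 and 6659 in control Treg cells, 3803, 5010.05 and 3569.95 in rescued Treg cells and 4090.3 and 6280.3 in wannabes. All control libraries were above all rescued and wannabe libraries, and the wannabe libraries lay apart from each other. *Nr4a2* (Nurr1) was at 375, 194 and 122 in control Treg, 43.5, 129 and 56.1 in rescued Treg cells and 45.1 and 35.6 in wannabes. Both wannabes were below every control library, and 1 rescued library was within the control range. *Nr4a3* (Nor1) was at 521, 646 and 619 in control Treg, 322, 626 and 223 in rescued Treg cells and 133 and 319.5 in wannabes. Rescued replicate 2 reached the control level while the other rescued libraries did not.

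The surface receptor genes *Cd5* (chr19:10717116-10739002) and *Cd69* (chr6:129267325-129275436) are both on the minus strand. *Cd5* was 25931, 25008 and 22646 in control Treg, 18735, 20569 and 25463.5 in rescued Treg cells and 18776 and 27912 in wannabes, with every pair of groups overlapping. *Cd69* was 9089.8, 6939.9 and 7859 in control Treg cells, 6933, 6385 and 5233 in rescued Treg cells and 5469 and 3961 in wannabes. The groups descended from control to rescued Treg cells to wannabes, though the control and rescued libraries nearest to each other differed by little and wannabe replicate 1 fell within the rescued range. In bulk RNA, a smaller share of cells with a transcript and less of it per cell cannot be told apart.

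**Figure D1:**
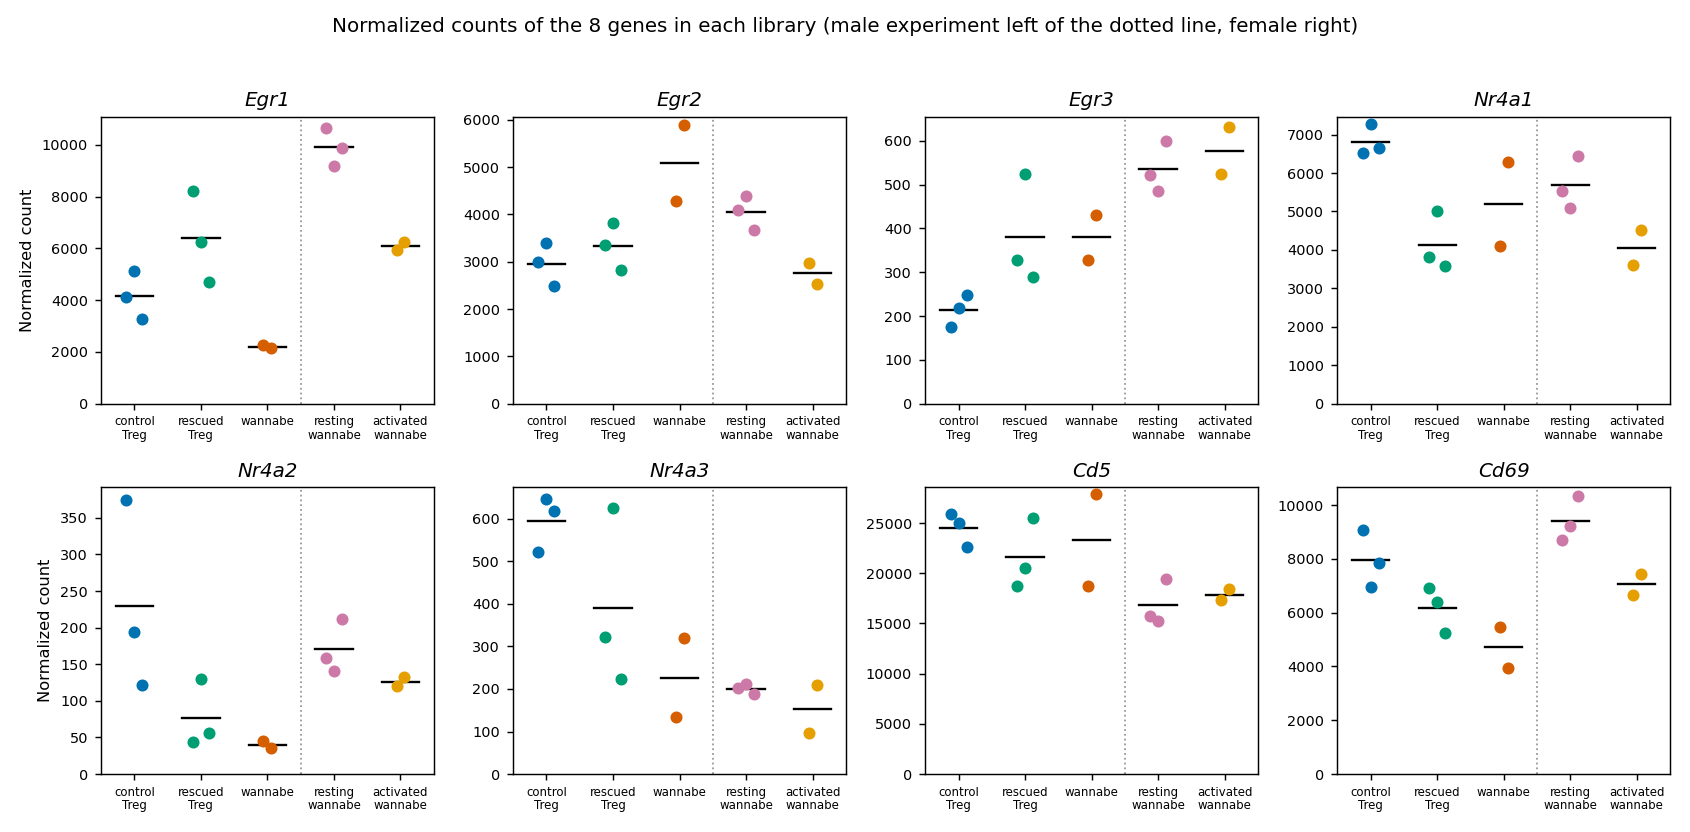
Normalized counts of the 8 genes (linear axes from 0) in each library by group, with the group mean as a line. The male experiment lies left of the dotted line and the female one right of it, each with its own scaling. *Egr1* was highest in rescued Treg cells among males and *Nr4a1* lowest there, and *Egr1*, *Egr2*, *Nr4a1* and *Cd69* were lower in activated than in resting wannabes.

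Between rescued and control Treg cells, none of the 8 members passed an adjusted p of 0.05 in edgeR's quasi-likelihood test, Benjamini-Hochberg adjusted, against 343 of 14925 genes (2.30%) overall. At an unadjusted p under 0.05 there were 4 members (*Egr1*, *Egr3*, *Nr4a1* and *Nr4a2*), against 16.1% of all genes, and DESeq2 called 1, *Nr4a1*, against 8.16% of all genes. The 3 members whose libraries did not overlap were *Egr3*, higher in rescued Treg cells, and *Nr4a1* and *Cd69*, lower there, against 24.2% of all genes. *Egr1* had a log2 fold change of 0.61 (SE 0.22) and *Egr3* of 0.83 (SE 0.34), and *Egr2* of 0.17 (SE 0.19). The Nr4a genes had opposite signs: -0.72 for *Nr4a1* (SE 0.19), -1.60 for *Nr4a2* (SE 0.61) and -0.61 for *Nr4a3* (SE 0.43). Those of *Cd5* and *Cd69* were -0.19 (SE 0.17) and -0.37 (SE 0.18). The median over the members was -0.28, against -0.03 over all genes. The adjusted p of *Nr4a1* was 0.0855 in edgeR's quasi-likelihood test, Benjamini-Hochberg adjusted and 0.0177 in DESeq2. Without wannabe replicate 1 or 2, libraries of another group that share the estimate of spread, edgeR's adjusted p for *Nr4a1* was 0.0277 and 0.0295, which passes the threshold.

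Control Treg cells against wannabes gave more calls: 4 of the 8 members, 3 higher and 1 lower in control Treg cells, where 16.2% of all genes were called, 9.92% higher and 6.27% lower. *Nr4a2* was higher by a log2 fold change of 2.51 (SE 0.74), *Egr1* by 0.93 (SE 0.26) and *Cd69* by 0.76 (SE 0.20), while *Egr2* fell by 0.78 on the log2 scale (SE 0.21). Their adjusted p in edgeR's quasi-likelihood test, Benjamini-Hochberg adjusted were 0.0400, 0.0316, 0.0281 and 0.0291. *Nr4a3* had a log2 fold change of 1.40 (SE 0.50) with an adjusted p of 0.0814 in edgeR's quasi-likelihood test, Benjamini-Hochberg adjusted, and was called by DESeq2. The median over the members was 0.58, against 0.09 over all genes. None of these calls held for every library left out. Without control Treg replicate 1 no member was called. Without control replicate 2 *Egr1* (0.75) and *Nr4a2* (2.62) were lost, without control replicate 3 *Egr2* (-0.66) and *Cd69* (0.77), and without wannabe replicate 1 *Egr1* (0.96) and *Nr4a2* (2.69). Without wannabe replicate 2 all 4 were lost, while *Nr4a3* was then called. Without control replicate 1 the log2 fold changes were 0.94 for *Egr1*, -0.79 for *Egr2*, 1.97 for *Nr4a2* and 0.65 for *Cd69*, and without wannabe replicate 2 they were 0.84, -0.58, 2.30 and 0.49, with 2.11 for *Nr4a3*.

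Rescued Treg cells against wannabes gave 1 called member of 8, *Egr1*, higher by a log2 fold change of 1.54 (SE 0.26; adjusted p 0.00293 in edgeR's quasi-likelihood test, Benjamini-Hochberg adjusted), where 14.1% of all genes were called, 10.0% higher and 4.06% lower. *Egr1* was higher in all 3 rescued libraries than in both wannabes. It was called in all 8 fits that left out 1 library, with log2 fold changes from 1.32 to 1.72. *Egr2* had a log2 fold change of -0.61 (SE 0.21), not called by edgeR and called by DESeq2, and called by edgeR without wannabe replicate 1 at -0.82. The other 6 members had log2 fold changes between -0.33 and 0.91, and the median over all 8 was 0.20, against 0 over all genes. The comparisons of males share libraries, so their calls were not counted as separate evidence.

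In females, *Egr1* was 10646, 9200.2 and 9882 in resting and 5931 and 6256 in activated wannabes, and *Egr2* was 4086, 4394 and 3665 against 2979 and 2526. Both activated libraries were below all resting libraries for each gene. *Egr3* was 523, 486 and 600.2 in resting and 523 and 631 in activated wannabes, with activated replicate 1 inside the resting range and replicate 2 above it. *Nr4a1* was 5529.7, 5098 and 6451 against 3605 and 4519, again without overlap.

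*Nr4a2* was 159, 140.4 and 212 in resting and 120.2 and 132 in activated wannabes, and *Nr4a3* was 202, 213 and 188 against 95.6 and 209. For *Nr4a2* both activated libraries were below all resting ones, and *Nr4a3* was low in 1 activated library only. *Cd5* was 15776, 15221 and 19402 in resting and 17315 and 18446 in activated wannabes, within the resting range. *Cd69* was 8704, 9238 and 10337.5 against 6667 and 7448, with both activated libraries below the resting ones.

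In edgeR's quasi-likelihood test, Benjamini-Hochberg adjusted, 4 of the 8 members were called between activated and resting wannabes, all lower in activated cells, where 22.5% of all genes were called, 11.3% higher and 11.2% lower. *Egr1* fell by 0.71 on the log2 scale (SE 0.09, adjusted p 0.00320 in edgeR), *Egr2* by 0.56 (SE 0.11, adjusted p 0.0184 in edgeR), *Nr4a1* by 0.49 (SE 0.14, adjusted p 0.0488 in edgeR) and *Cd69* by 0.42 (SE 0.10, adjusted p 0.0298 in edgeR). *Egr3* and *Cd5* had log2 fold changes of 0.10 (SE 0.16) and 0.09 (SE 0.12), and *Nr4a2* and *Nr4a3* of -0.44 (SE 0.25) and -0.41 (SE 0.34). The median over the members was -0.43, against -0.01 over all genes. With only 2 activated libraries, leaving 1 out moved the calls: without activated replicate 1 no member was called, and without replicate 2 only *Egr1* was, while the log2 fold changes were -0.67 and -0.76 for *Egr1*, -0.69 and -0.46 for *Egr2*, -0.34 and -0.67 for *Nr4a1* and -0.35 and -0.51 for *Cd69*. Without resting replicate 3 *Nr4a1* (-0.39) and *Cd69* (-0.35) were not called, and without resting replicate 1 *Nr4a1* (-0.50) was not. Of 6 other ways of processing, DESeq2 alone kept the call of *Nr4a1*, and 4 kept that of *Cd69*, which was lost with the replicate number as a block and with all 13 libraries in 1 model. That model called no member in females by edgeR, where DESeq2 on the female libraries called 4 and edgeR's unadjusted p was under 0.05 for 4 in the model of those libraries. The share of all genes was not computed for either count of 4, so neither is read as a result about the members.

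**Figure D2:**
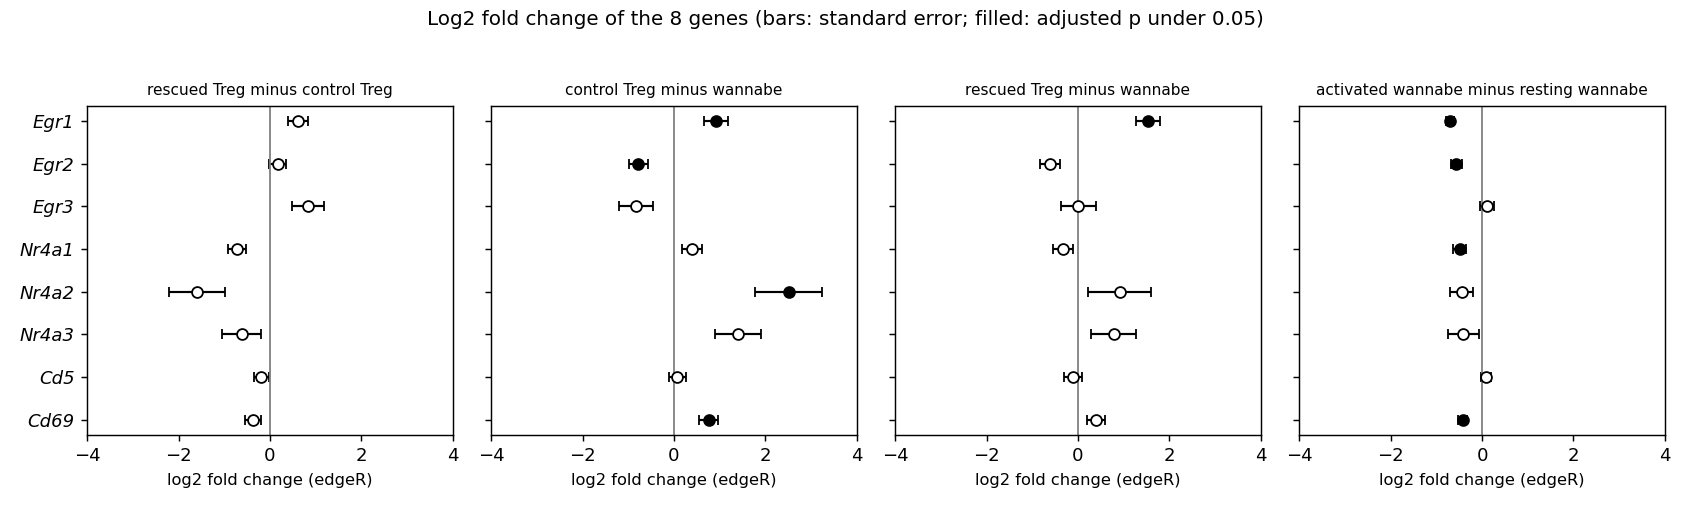
Log2 fold changes of the 8 genes from edgeR (points, log2 units) with standard errors (bars) in the 3 male comparisons and the female one; filled points have an adjusted p under 0.05. *Egr1* lies right of 0 in the male comparisons and left of it, at -0.71, in activated against resting wannabes.

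The changes of males and females were compared as a difference of differences over all 13 libraries: rescued minus control Treg cells, minus activated minus resting wannabes. *Egr1* differed by a log2 of 1.33 (SE 0.29; adjusted p 0.0374 in edgeR's quasi-likelihood test, Benjamini-Hochberg adjusted), 1 of 8 members where 1.53% of all genes were called. Its log2 fold change of 0.61 between rescued and control Treg cells was not called by itself, and its fall in activated wannabes was. Sex, age, treatment and count table differ between the experiments and cannot be told apart from the populations. The call was lost in 9 of the 13 fits without 1 library, at adjusted p up to 0.224 in edgeR's quasi-likelihood test, Benjamini-Hochberg adjusted, and the difference in those 9 fits lay between 1.11 and 1.39. The libraries that mattered were control replicates 1 and 3, rescued replicates 1 and 2, all 3 resting and both activated libraries. The other 7 members were not called.

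No relative of the families was called by edgeR in the male comparisons with all libraries, while DESeq2 called 1 between rescued Treg cells and wannabes, and without wannabe replicate 2 edgeR called 1 in each comparison with wannabes. *Egr4* was sparse, at normalized counts of 3.21, 0.910 and 1.89 in control Treg cells, 67.1, 9.05 and 15.6 in rescued Treg cells and 0 and 2.16 in wannabes. All 3 rescued libraries were above all others, and the log2 fold change of *Egr4* against control Treg cells was 3.86 (SE 1.67, adjusted p 0.281 in edgeR's quasi-likelihood test, Benjamini-Hochberg adjusted). In females *Egr4* was at 27.4, 47.8 and 31.1 in resting and 77.6 and 79.4 in activated wannabes, without overlap, with a log2 fold change of 1.14 (SE 0.36, adjusted p 0.0655 in edgeR's quasi-likelihood test, Benjamini-Hochberg adjusted), and DESeq2 called it. Of *Nab1* and *Nab2*, corepressors that bind Egr proteins, *Nab2* fell by 0.52 on the log2 scale in activated wannabes (SE 0.10, adjusted p 0.0152 in edgeR's quasi-likelihood test, Benjamini-Hochberg adjusted), from 3102, 3514 and 3714 to 2402 and 2427 normalized counts. That call was lost without activated replicate 1 (-0.51) or 2 (-0.53). *Nab2* was 3894, 3807 and 3786 in control Treg, 3199, 3654 and 3279 in rescued Treg cells and 1651 and 3319 in wannabes.

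Other immediate early genes (17 in the list) gave 1 edgeR call of 16 tested in rescued against control Treg cells, *Ier3*, with a log2 fold change of 2.76 (SE 0.27), called in all 8 fits without 1 library. Of all genes, 2.30% were called there. The median log2 fold change of the tested genes in the list was 0.38, against -0.03 over all genes. Against wannabes, 4 of 16 were higher in control Treg cells, where 9.92% of all genes were, and *Ier3* was lower. Without 1 library the number higher ran from 0 (wannabe replicate 1) through 1 (control replicate 1 or 2) and 2 (control replicate 3 or wannabe replicate 2) to 5, and *Ier3* was called lower each time. In rescued Treg cells 5 of 16 were higher than in wannabes, where 10.0% of all genes were, and 3 without wannabe replicate 1. Among them *Ier5* had a log2 fold change of 3.79, and of 2.67 without rescued replicate 1. In activated against resting wannabes, 6 of 17 were lower, where 11.2% of all genes were, and 5 to 7 on leaving out 1 library. *Jun* (-1.51), *Fos* (-1.09) and *Klf6* (-0.94) were called each time. The 1 higher gene, *Ier3* (3.20), was lost without activated replicate 1 (3.16) or 2 (3.23), and 3 genes were higher without resting replicate 1. The median was -0.75 against -0.01 over all genes.

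Genes induced later after TCR engagement (24 in the list) were mixed. In rescued Treg cells 2 of 23 were higher than in controls, where 2.30% of all genes were called in either direction. *Icos* (log2 1.01) was called in all 8 fits without 1 library, and *Nfatc1* (0.66) was lost without any 1 of the 6 Treg libraries (0.60 to 0.76). Without wannabe replicate 1 or 2 the counts were 4 and 3 higher, and 1 lower. Control Treg cells against wannabes had 3 higher and 3 lower, where 9.92% and 6.27% of all genes were. The number lower was 1 without control replicate 2 or rescued replicate 2 and 5 without wannabe replicate 1, and *Tnfrsf9* (1.66) and *Dusp6* (-1.53) were called each time. In activated wannabes 5 of 22 were higher and 5 lower, where 11.3% and 11.2% of all genes were. Without activated replicate 1 or 2 there were 1 higher and 1 lower, the TNF receptor family member *Tnfrsf4* (1.52) and *Lag3* (-2.32), and without resting replicate 1 or 3 there were 3 lower.

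Genes linked to Egr-dependent restraint (12 in the list) had 1 called between rescued and control Treg cells, where 2.30% of all genes were, *Cdkn1a* (log2 1.58), which was lost without control replicate 1 (1.38) or 3 (1.60) or rescued replicate 1 (1.38) or 3 (1.62). Without wannabe replicate 1 or 2, 2 were lower. In control Treg cells 3 were higher than in wannabes, *Nrn1* (2.80), *Socs1* (2.36) and *Nt5e* (0.70), and *Cdkn1a* was lower (-3.35), where 9.92% and 6.27% of all genes were. Without control replicate 2 or wannabe replicate 1 *Socs1* was lost (1.97 and 1.75), and without wannabe replicate 2 there were 5 higher. In activated wannabes 5 were higher, *Cdkn1a* (2.04) among them, and *Nt5e* was lower (-1.86), where 11.3% and 11.2% of all genes were. Without activated replicate 1 or 2 there were 2 and 1 higher, and without resting replicate 2 there were 3 lower.

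Proximal TCR signalling genes (17 in the table) had no call between rescued and control Treg cells in edgeR or DESeq2, which called 2.30% and 8.16% of all genes. The summed normalized count of the 17 was 353566, 329852 and 348076 in control and 323515, 341246 and 349675 in rescued Treg cells. In activated wannabes 5 of 17 were lower, where 11.2% of all genes were. Without activated replicate 1 or 2 there was 1, and without resting replicate 1 there were 3 lower and 2 higher. *Cd28* (-0.84) was called each time. Of 8 partners of Cd5 and Cd69, *Ccr7* was lower in rescued than in control Treg cells (log2 -0.96), where 2.30% of all genes were called. That call was lost without control replicate 1 (-0.97) or 3 (-0.97) or rescued replicate 1 (-0.98). Between activated and resting wannabes edgeR called none of the 8, where it called 22.5% of all genes, and DESeq2 called 1, lower. Without resting replicate 1 or 3 edgeR called 1 higher, and without resting replicate 2 it called 1 lower.

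Of 11 heat shock genes, all 10 tested were called lower in activated wannabes, where 11.2% of all genes were. Their median log2 fold change was -1.28, against -0.01 over all genes. Fewer of these heat shock genes were called without activated replicate 1. Their summed normalized count was 134601, 126603 and 157825 in resting and 62972 and 67052 in activated wannabes, and in males 126398, 84103 and 88893 in control, 71972, 82394 and 72323 in rescued Treg cells and 93165 and 94949 in wannabes. The most abundant gene was *Hsp90ab1* or *Hspa8*, depending on the library. In rescued against control Treg cells 1 of 10 was called, where 2.30% of all genes were, and was lower, *Hspa1a* (log2 -5.44), which was lost without control replicate 1 (-3.08) or any 1 rescued library (-5.30, -5.69 and -5.33). None of the 10 had a positive log2 fold change there, and their median was -0.50 against -0.03 over all genes. DESeq2 called 3 lower, where it called 8.16% of all genes in either direction. In control Treg cells 4 of 10 were higher than in wannabes, where 9.92% of all genes were: *Hspa1a* (log2 5.29), *Hspa1b* (5.21), *Hsph1* (1.14) and *Dnaja1* (0.88). Without control replicate 1 none of the 4 was called by edgeR, and *Hspa1a*, *Hspa1b* and *Hsph1* were at 2.93, 2.34 and 0.80. Without control replicate 3 there were 2 calls, and without wannabe replicate 1 or 2 there was 1. Their part in the change of the members was not tested.

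Markers of other cells were low beside *Cd3e*. In activated wannabes, though, the sum of the B cell markers was above *Egr3*, *Nr4a2* and *Nr4a3*. B cell markers (6 of 7 in the table) summed to 360, 374 and 306 normalized counts in resting and 2151 and 2087 in activated wannabes. Of 3 tested, 2 were called higher in activated cells, where 11.3% of all genes were. *Cd79b* was the most abundant B cell marker in resting and *Cd22* in activated wannabes. In males the sum of the B cell markers lay between 1189 and 2010, led by *Cd79b*. Myeloid markers summed to at most 461 and dendritic markers to at most 241 in any library, and the most abundant gene of each differed between libraries, *Itgam* or *Cd68* in most for the myeloid and *Xcr1* in most for the dendritic list. *Cd8b1* led the CD8 and NK markers, which reached 1203 in wannabe replicate 2, and *Cd8a* had at most 17 counts. Erythroid and platelet markers reached 509, in resting replicate 3. Between control Treg cells and wannabes 1 myeloid marker was higher in controls, and 1 CD8 and NK marker and 1 erythroid marker were lower, and each count was 0 without control replicate 1. Of all genes, 9.92% were higher and 6.27% lower. Between rescued and control Treg cells edgeR called none of the CD8 and NK or myeloid markers, and DESeq2 called 3 and 1 higher in rescued cells, where they called 2.30% and 8.16% of all genes. All 5 CD8 and NK markers and 6 of 7 myeloid markers tested had positive log2 fold changes there (medians 1.96 and 3.01). Of 5 Treg markers, 4 were higher in control Treg cells than in wannabes (3 to 4 on leaving out 1 library) and 3 higher in rescued Treg cells than in wannabes (2 to 3), *Foxp3* in both and each time. Of all genes, 9.92% and 10.0% were called higher in these 2 comparisons. In activated against resting wannabes 2 Treg markers were called higher, *Ikzf2* (log2 1.587) and *Tnfrsf18* (1.075), where 11.3% of all genes were. *Foxp3* was called lower there (-0.35), where 11.2% of all genes were. The part of the other cells in the results was not tested.

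Among 10779 genes, those most like each pattern over the 8 male libraries were sought by Pearson's r of log2 CPM, given without a p. For the mean of *Egr1*, *Egr2* and *Egr3* they were *Lppos* (r 0.962), *Eif4e2* (0.948) and *Ifng* (0.908), followed by *Lars2* and *A930007I19Rik*. Over the 5 female libraries they had r of -0.889, -0.846, -0.872, 0.219 and -0.938. For the Nr4a genes they included *Cnn3*, *Zfp36l1*, *Eno3* and *Dnajb1* (r from 0.946 to 0.958), with female r of 0.904, 0.831, 0.817 and 0.852.

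For *Cd5* they included *Preb*, *Saysd1*, *Ankrd39* and *Stard3* (0.953 to 0.973), with female r between -0.233 and 0.0395. For *Cd69* they were *Wwp1*, *Cd48*, *Rnf2*, *Simc1* and *Zfp260* (0.969 to 0.974), with female r of 0.308, -0.647, 0.938, 0.521 and 0.780. Among members, *Nr4a1* and *Nr4a3* had r of 0.726 in males and in females, and *Cd69* and *Nr4a2* of 0.796 and 0.877. *Egr1* and *Egr2* had r of -0.462 in males and 0.867 in females, and *Cd69* and *Egr2* of -0.754 and 0.709. The libraries include the groups compared above, so these values are not separate evidence.

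RefSeq promoter windows of GRCm38.p6, 300 bases around a transcript start, were used for 5 of the 8 members: *Egr2*, *Nr4a1*, *Nr4a2*, *Nr4a3* and *Cd5*. They were read for the letters TGACG, the core that cyclic AMP response elements contain, on both strands, and for the CArG box of serum response factor by name; matches on both strands that share bases, as in a palindrome, were counted apart. Each Nr4a window held 4 matches of TGACG, as did 76 of all 32851 windows or more (0.231%), and 20.8% of all windows held at least 1. Among 5 *Egr2* windows, of which the last 3 share most of their bases, the window shown held 2 such matches and a CArG box, which 1.63% of all windows hold. The second *Egr2* window held a CArG box but no TGACG, and the first held neither. The *Cd5* window held neither. None of the windows used for these 5 members held the Nr4a element AAAGGTCA (1.51% of all windows), the Egr element GCGTGGGCG (0.612%) or the AP-1 element TGANTCA (7.81%). *Egr1*, *Egr3* and *Cd69* were not searched. The Nr4a windows and that of *Egr2* are shown because these genes are textbook immediate early genes that were measured here together. Capitals mark TGACG or its reverse complement and the CArG box.
*Nr4a1*, chr15:101266596-101266895, plus strand, 50 of 300 bases in annotated exons: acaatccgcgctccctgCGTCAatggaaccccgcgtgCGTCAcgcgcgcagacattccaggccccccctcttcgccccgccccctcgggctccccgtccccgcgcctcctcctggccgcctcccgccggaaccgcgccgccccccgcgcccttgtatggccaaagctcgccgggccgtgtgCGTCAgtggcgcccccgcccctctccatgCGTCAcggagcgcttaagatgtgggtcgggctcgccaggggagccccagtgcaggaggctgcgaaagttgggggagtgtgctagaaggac
*Nr4a2*, chr2:57123954-57124253, minus strand, 50 bases in exons: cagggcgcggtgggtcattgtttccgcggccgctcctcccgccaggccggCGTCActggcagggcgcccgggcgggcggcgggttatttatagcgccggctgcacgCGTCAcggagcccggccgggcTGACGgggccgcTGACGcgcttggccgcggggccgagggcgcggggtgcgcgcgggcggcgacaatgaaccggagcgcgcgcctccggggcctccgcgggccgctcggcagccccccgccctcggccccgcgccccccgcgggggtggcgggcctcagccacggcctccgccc
*Nr4a3*, chr4:48045055-48045354, plus strand, 202 bases in exons: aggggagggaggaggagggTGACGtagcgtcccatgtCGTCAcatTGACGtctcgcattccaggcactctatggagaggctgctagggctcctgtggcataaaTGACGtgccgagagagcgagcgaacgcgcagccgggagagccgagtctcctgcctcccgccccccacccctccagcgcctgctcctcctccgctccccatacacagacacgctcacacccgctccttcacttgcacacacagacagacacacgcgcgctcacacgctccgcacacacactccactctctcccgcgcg
*Egr2*, chr10:67537619-67537918, plus strand, 50 bases in exons: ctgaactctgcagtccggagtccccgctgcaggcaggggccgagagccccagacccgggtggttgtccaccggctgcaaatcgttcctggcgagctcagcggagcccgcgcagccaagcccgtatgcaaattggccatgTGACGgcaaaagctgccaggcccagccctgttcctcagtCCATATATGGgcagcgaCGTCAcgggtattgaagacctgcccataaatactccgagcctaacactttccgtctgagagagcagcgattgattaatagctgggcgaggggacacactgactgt

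A match describes letters in these windows. Whether any factor binds there was not measured.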

How the data were processed

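Bulk RNA-seq libraries (SMART-Seq v4) of sorted T cells were analysed. The deposited values are raw counts per gene. Per the labels and the methods, the authors aligned reads with STAR 2.7.3a to GRCm38, realigned them with GATK and counted them in R; the annotation and strand setting are not given in the sources used here. Columns of the male table were matched to samples by genotype, sort gate and replicate number, since the titles do not hold their names. The series text and the sample labels differ on which female group has 3 libraries, and the labels were used. The members and gene lists were chosen with earlier results of these data known. Of 24421 entries per table, 4 have no gene name and were left out (0.00353% to 0.00841% of counts). Counts were tested in R 4.3.3 with edgeR 4.0.16: TMM scaling, filterByExpr by group, a quasi-likelihood F test, and p-values adjusted by Benjamini and Hochberg's method over every tested gene (threshold 0.05). One model covered the 8 male libraries, another the 5 female libraries, and a model of all 13 gave the difference of changes. Common biological coefficients of variation were 0.510, 0.171 and 0.405. Normalized counts were scaled to TMM library size. For log2 CPM the prior count was 2. RPKM used the exonic length of GENCODE M21, to which 96.9% of genes matched by symbol. No GENCODE gene overlapped a member. The code was tested on simulated data. Between replicates, chi-square per degree of freedom of the counts was 10.8 to 122, so no pair was a repeated library. Genes named were the members, up to 3 called rises and falls per list with mean normalized count of at least 50, up to 5 of the genes most alike in pattern to each member family, *Cd5* and *Cd69*, and some singled out after seeing their values (*Egr4*, *Nab1*, *Dnaja1*, *Hspa8*, *Hsp90ab1*, *Cd68*, *Xcr1*, *Jund*, *Klf2*, *Ier5*, *Hspa1a*, *Cd3e*, *Cd8a*, *Cd8b1*). Alternatives were DESeq2 1.42.0, DESeq2 size factors, no filter, a mean normalized count over 100, the replicate number as a block, leaving out each library, only the groups compared, and all libraries in 1 fit.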

Additional observations from a re-analysis of the deposited data

Results flagged for a closer look

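The change of *Egr1* between rescued and control Treg cells in males differed from that between activated and resting wannabes in females by a log2 of 1.33 in the test of the difference itself (adjusted p 0.0374 in edgeR's quasi-likelihood test, Benjamini-Hochberg adjusted over 15201 genes). *Egr1* was the only member past the threshold, and on leaving out 1 library it passed in 4 of 13 fits, with adjusted p from 0.0173 to 0.224 in edgeR. The cause was not tested.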

How the results depend on the processing

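Of the members' log2 values recomputed under the alternatives, 520 kept their direction and their side of the threshold, 15 changed sign, 14 passed the threshold newly and 43 no longer passed it. The cause was not tested.

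Rescued minus control Treg cells: 343 genes were called, against 1195 in DESeq2, 612 with no filter, 580 with only the groups compared, 929 with all 13 libraries in 1 model, 426 with the replicate number as a block, and 114 to 598 on leaving out 1 library. The called members were 0, against 1, *Nr4a1*, in each of DESeq2, no filter, the block, only the groups compared and all 13 libraries, and 0 to 1 on leaving out 1 library. Control Treg cells minus wannabes: 2416 genes, against 3751 in DESeq2, 3775 with all 13 libraries and 1549 to 2423 on leaving out 1 library, with 4 members against 5 in DESeq2, with the block and with all 13 libraries, 3 with only the groups compared and 0 to 4 on leaving out 1 library. Rescued Treg cells minus wannabes: 2105 genes, against 3316 in DESeq2 and 3162 with all 13 libraries, with 1 member against 2 in both and 1 to 2 on leaving out 1 library. Activated minus resting wannabes: 2958 genes, against 869 with all 13 libraries, 2045 with the block and 751 to 3215 on leaving out 1 library, with 4 members against 3 with DESeq2's size factors, no filter or the higher filter, 2 with the block, 0 with all 13 libraries (edgeR; DESeq2 on the female libraries called 4) and 0 to 4 on leaving out 1 library. Difference of changes: 233 genes, against 792 in DESeq2 and 44 to 430 on leaving out 1 library, with 1 member against 0 to 1 on leaving out 1 library. Leaving out a library of a group of 2 leaves a lone sample, which is then assumed to vary like the other groups.

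These values changed sign. *Egr3* in rescued Treg cells minus wannabes (0.01) was -0.0177 in DESeq2, -0.0165 with DESeq2's size factors and -0.0235 with only the groups compared, and ran from -0.25 to 0.17 on leaving out 1 library. On leaving out 1 library, *Cd5* ran from -0.19 to 0.34 in control Treg cells minus wannabes and from -0.37 to 0.16 in rescued Treg cells minus wannabes, *Egr3* from -0.0504 to 0.23 and *Nr4a3* from -1.08 to 0.0476 in activated minus resting wannabes, and in the difference of changes *Nr4a3* ran from -0.69 to 0.47 and *Cd69* from -0.0243 to 0.20. *Cd69* in the difference of changes was -0.00196 with the block. Correlations of deviations from the group mean, between equally numbered replicates of different groups, lay between -0.0292 and 0.0845. Unequally numbered replicates were not set beside them, so whether the numbers pair libraries was not tested.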
